A study of Rattus norvegicus with 6 samples.

Results

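The central myelin genes are 9 genes whose products build or maintain the myelin of the central nervous system: Mbp, Mobp, Cldn11, Mog, Mag, Opalin, Cnp, Ermn and Ugt8. They were chosen by name, and each name matched 1 of the 30957 genes of the deposited table. RNA-seq had been performed on the lumbar spinal cord of rats with bone cancer pain (BCP) and of sham-operated rats, to find which transcripts differ between them. All animals were adult female Wistar rats. BCP rats had received living Walker 256 cells, a rat breast carcinoma line, in the medullary cavity of the left tibia, whereas heat-killed cells of the same line were put at the same site in sham-operated rats. On day 14 the lumbar enlargement was freed of meninges, and the ipsilateral side was used, so every library is a mixture of all cell types of the cord. There were 3 sham libraries (sham 1 to 3) and 3 BCP libraries (BCP 1 to 3). The labels number them as replicates and the study calls them triplicate samples, without saying more, so p-values measure the spread between these samples. Counts on genes totaled 11779485 to 15004290 per library.

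Myelin of the central nervous system is made by oligodendrocytes, which wrap sheets of their membrane around axons and compact them into an insulating sheath, so that impulses jump between the gaps called nodes of Ranvier. The spinal cord is rich in myelin because long tracts of axons run through its white matter. Oligodendrocytes arise from precursor cells and switch on the genes of myelin proteins and lipids as they mature, under transcription factors such as Sox10 and Myrf.

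The labelled tissue held all of these genes at high levels. Their counts made up 2.66% ± 0.161 of all counts on genes in sham and 1.91% ± 0.137 in BCP libraries (SD, n = 3), of which Mbp alone made up 1.98% ± 0.145 and 1.38% ± 0.123. Levels of different genes were compared with the authors' FPKM, which divides by transcript length and library size. In the sham libraries Mbp stood far above the others with an FPKM of 5458 ± 399, followed by Cnp with 634 ± 25.5, Cldn11 with 482 ± 21.9, Mobp with 401 ± 11.7 and Mag with 325 ± 3.94 (SD, n = 3). Mog and Ugt8 came next with an FPKM of 235 ± 14.6 and 231 ± 8.98, and their sham libraries overlapped. Ermn had an FPKM of 171 ± 15.5 and Opalin of 90.0 ± 7.06. The order was the same in the BCP libraries, where Mbp had an FPKM of 3804 ± 339 and Opalin of 73.0 ± 3.39. There Mog, at 200.3 ± 9.37, and Ugt8, at 167 ± 1.38, no longer overlapped, and no other neighbours in the order overlapped in either group.

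**Figure D1:**
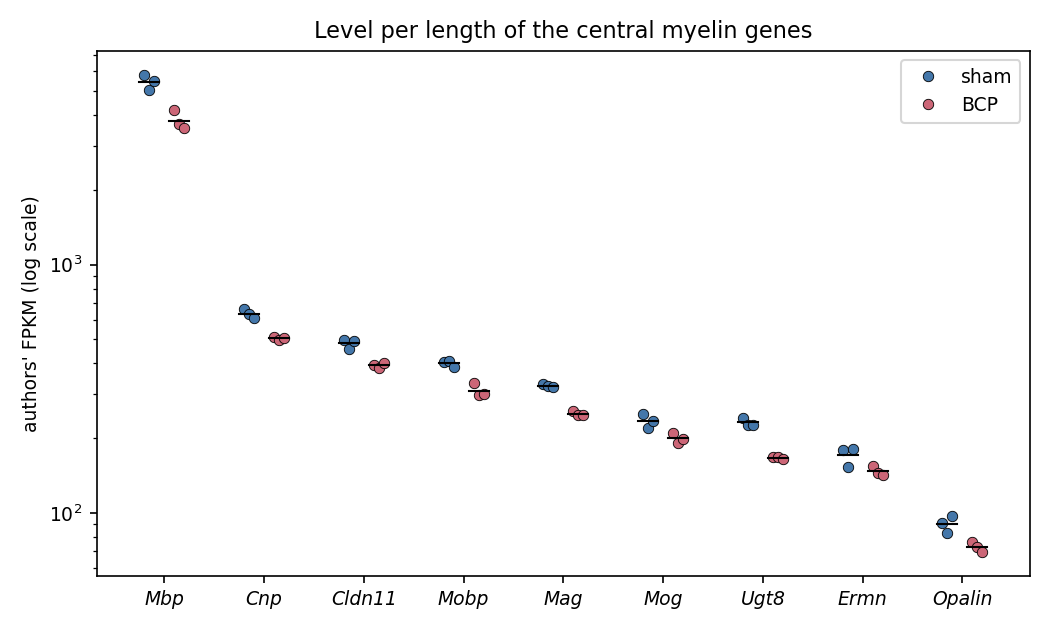
FPKM of the 9 central myelin genes (log axis) in each of the 3 sham and 3 BCP libraries (points), with the mean of each group as a black line. The order from Mbp to Opalin is the same in both groups, and the BCP means lie below the sham means for all 9 genes.

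All 9 genes were lower in BCP rats. Each had enough counts to be tested, and each passed edgeR's quasi-likelihood test at an adjusted p-value under 0.05, in a background where 12.1% of the 14908 tested genes were called lower and 15.8% higher. Abundant genes were called more often: of the 757 tested genes with a mean level at least that of Opalin, the least abundant member by CPM, 49.3% were called lower, and 17.4% had a log2 fold change (log2FC) at or below that of Ermn, the smallest among the members. The falls were moderate. The level in BCP libraries was 16.2% (Ermn) to 32.2% (Mbp) below that in sham libraries, with a median log2FC of -0.37 over the members against -0.01 over all tested genes, and no member passed the 2-fold threshold that the study also applied, which 0.107% of tested genes passed downwards and 6.35% upwards. For all 9 genes the highest BCP library lay below the lowest sham library in normalized counts, which held for 19.8% of tested genes. These levels are relative to the counts of each library. In bulk tissue, fewer oligodendrocytes, less RNA per oligodendrocyte and more RNA from other cells therefore cannot be told apart.

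**Figure D2:**
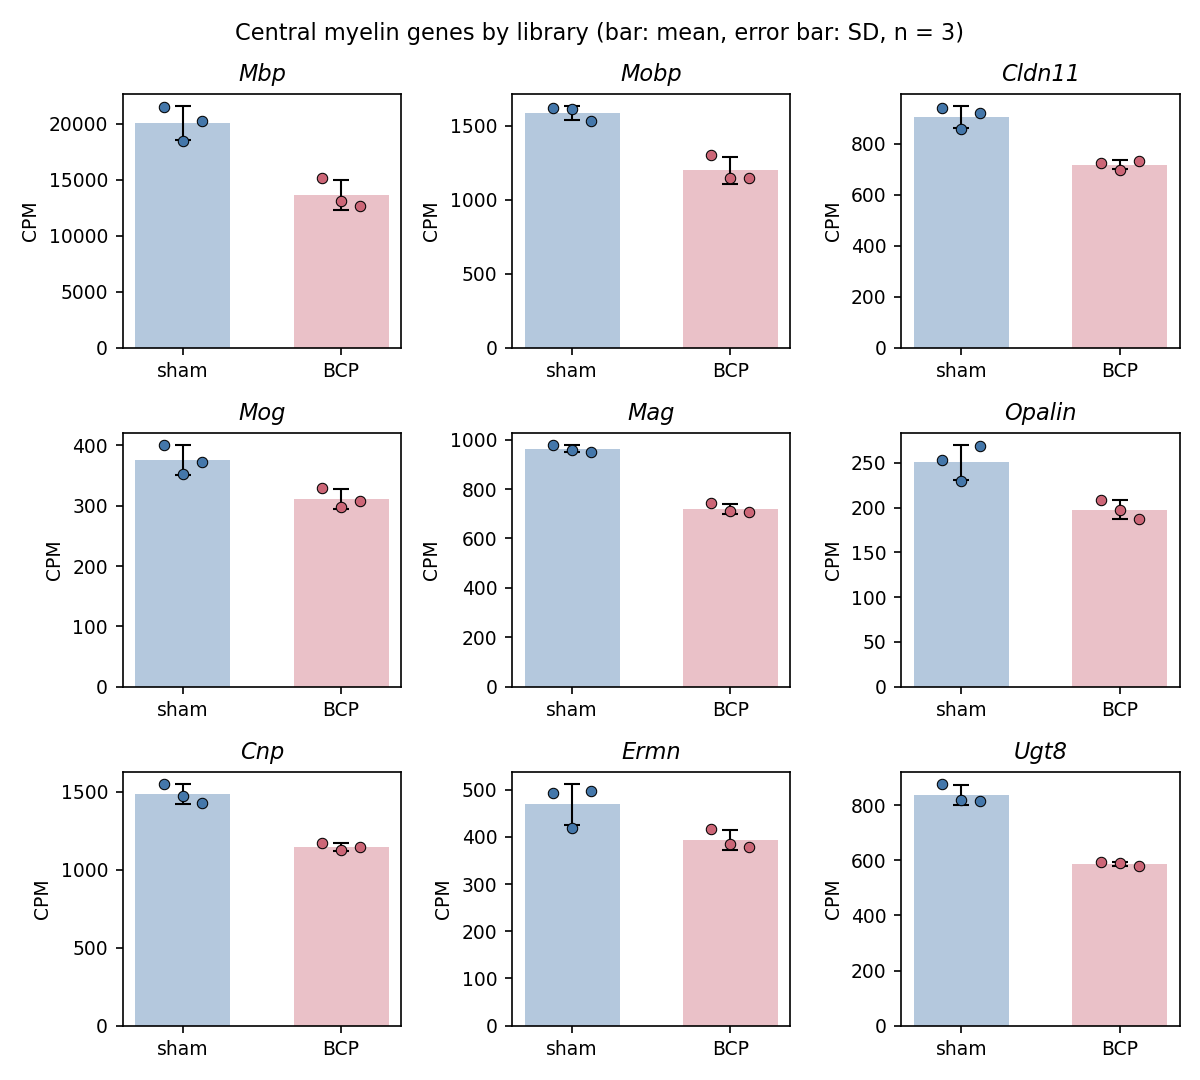
Normalized counts (CPM) of the 9 central myelin genes by group; bars are means, error bars SD (n = 3), points single libraries, and every axis starts at 0. In each panel the 3 BCP points lie below the 3 sham points, with the narrowest gap in Ermn, where BCP 1 is at 417 and sham 2 at 419 CPM.

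Mbp (ENSRNOG00000016516, chr18:79326738-79437310 on Rnor_6.0) encodes myelin basic protein, which holds the cytoplasmic faces of the membrane together in compact myelin. Its level was 21534, 18474 and 20257 CPM (counts scaled by library size and TMM factor) in sham 1, 2 and 3 and 15118, 13122 and 12612 CPM in BCP 1, 2 and 3. The means were 20088 ± 1537 and 13617 ± 1325 CPM (SD, n = 3), with a log2FC of -0.56 (SE 0.09, edgeR adjusted p = 0.0062). This was the largest fall among the members, and also the one with the widest interval, from -0.78 to -0.34 at 95% confidence. Mobp (ENSRNOG00000018700, chr8:128824508-128850358), myelin-associated oligodendrocyte basic protein, is another basic protein of the compact sheath. It was at 1621, 1613 and 1534 CPM in sham 1 to 3 and at 1303, 1145 and 1150.4 CPM in the BCP libraries. BCP 1 was the highest BCP library for both genes, and its distance to the nearest sham library was still larger than the range of the sham libraries for Mobp. The log2FC of Mobp was -0.41 (SE 0.05, edgeR adjusted p = 3.43e-06). A lncRNA transcript that spans Mobp had more counts than the gene, as given below with the lncRNAs. Cldn11 (ENSRNOG00000010263, chr2:115823538-115836846) encodes claudin 11, which forms the tight junctions between the layers of the sheath. It was at 938, 855 and 921 CPM in sham 1 to 3 and at 725, 698 and 731 CPM in the BCP libraries, with a log2FC of -0.33 (SE 0.04, edgeR adjusted p = 6.9e-06). The BCP libraries lay close together, whereas sham 2 was the lowest sham library, as it was for Mbp.

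Among the genes of proteins on the surface of the sheath, Mag had the largest fitted fall in RNA, a ranking that was not tested. Mag (ENSRNOG00000021023, chr1:89345429-89360733), myelin-associated glycoprotein, sits on the innermost layer, facing the axon. Its level was 980.0, 957 and 952 CPM in sham 1 to 3 and 744, 710.5 and 708 CPM in BCP 1 to 3. Both groups were tight and far apart, and the log2FC was -0.42 (SE 0.04, edgeR adjusted p = 1.18e-07). Mog (ENSRNOG00000000775, chr20:2004052-2014286), myelin oligodendrocyte glycoprotein, lies on the outermost layer and is a known target of autoimmune attack. It was at 401, 352 and 373 CPM in sham 1 to 3 and at 330.2, 297 and 308 CPM in the BCP libraries, with a log2FC of -0.27 (SE 0.05, edgeR adjusted p = 0.000645). The gap between the groups was smaller than for Mag. Opalin (ENSRNOG00000022386, chr1:260324028-260341723) encodes a transmembrane sialoglycoprotein of mature oligodendrocytes. It was at 254, 229 and 269 CPM in sham 1 to 3 and at 209, 197 and 187 CPM in the BCP libraries, with a log2FC of -0.34 (SE 0.06, edgeR adjusted p = 0.000185).

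Cnp and Ermn act on the cytoplasmic side. Cnp (ENSRNOG00000017496, chr10:88490798-88497356), cyclic nucleotide phosphodiesterase, keeps channels of cytoplasm open within the sheath and is bound to the cytoskeleton. It was at 1551, 1470.0 and 1424 CPM in sham 1 to 3 and at 1173, 1124 and 1142 CPM in the BCP libraries, with a log2FC of -0.37 (SE 0.04, edgeR adjusted p = 9.77e-07). Ermn (ENSRNOG00000021472, chr3:44068057-44086022) encodes ermin, an actin-binding protein of late oligodendrocyte maturation. It was at 492, 419 and 497 CPM in sham 1 to 3 and at 417, 384 and 379 CPM in the BCP libraries, with a log2FC of -0.26 (SE 0.06, edgeR adjusted p = 0.0085). Sham 2 stood well below the other sham libraries and almost touched BCP 1, and in FPKM the groups overlapped, with 153 in sham 2 and 155 in BCP 1. Ermn was the only member whose call depended on 1 library, since without BCP replicate 3 its log2FC was -0.23 and its edgeR adjusted p = 0.051.

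Ugt8 (ENSRNOG00000009345, chr2:229644382-229718659) encodes the galactosyltransferase that makes galactosylceramide, a main lipid of myelin. Its level was 879, 818 and 816 CPM in sham 1 to 3 and 594, 589 and 578 CPM in BCP 1 to 3. The BCP libraries were nearly equal and 29.9% below the sham mean, with a log2FC of -0.51 (SE 0.04) and the smallest p-value of the members (edgeR adjusted p = 1.51e-08).

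**Figure D3:**
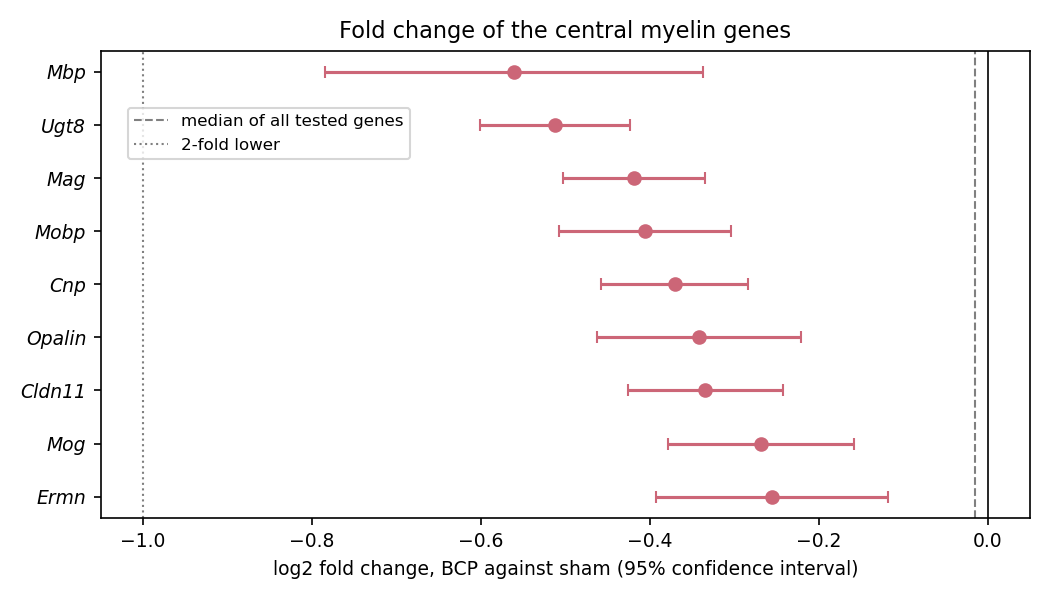
Log2 fold change of each member between BCP and sham with its 95% confidence interval, sorted from Mbp (-0.56) to Ermn (-0.26); the dashed line is the median of all tested genes (-0.01) and the dotted line marks a 2-fold lower level. All intervals lie between the 2 lines.

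Fitted falls of the members ranged in size from that of Ermn to that of Mbp. Ratios of 1 member to another were formed within each library for all 36 pairs, and in 15 pairs the groups did not overlap. Each ratio was written so that its BCP mean was the lower one, and the pairs share members. No share over pairs of other genes was computed, so the count of 15 is not a result about the members. The log2 ratio of Mbp to Ermn was 5.42 ± 0.0615 in sham and 5.11 ± 0.0624 in BCP libraries (SD, n = 3), and the ratio of Mbp to Mog differed by -0.29. The log2 ratio of Ugt8 to Ermn differed by -0.26 and that of Ugt8 to Mog by -0.24. An exact two-sided permutation test of a single ratio cannot go below p = 0.1 with 3 libraries against 3, which leaves it without power here, so the ratios are given as a description and carry no test.

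The genes whose profile over the 6 libraries was most like that of the members were, among 6169 other genes with a mean log2 CPM of at least 5, Scrg1, Frmd5, Pex5l, Scd2 and Pllp. Likeness was the root mean square difference between a gene's log2 CPM, centred on its own mean, and the mean centred profile of the members, and it was 0.029 for Scrg1 and 0.035 for Pllp, against 0.036 (Mag) to 0.10 (Mbp) for the members themselves. Scd2, a stearoyl-CoA desaturase that makes monounsaturated fatty acids, was the most abundant of them and was at 7694 ± 114 CPM in sham and 5840.1 ± 229 CPM in BCP libraries (SD, n = 3), with a log2FC of -0.40 (SE 0.04). Pllp encodes plasmolipin, a membrane protein of myelin, and had a log2FC of -0.35 (SE 0.05). These genes were picked for a profile that includes the lower BCP level, so their values are a description with no test.

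Promoters of the members are shown because all 9 genes were lower in BCP rats and because Sox10 and Myrf are known to act on genes of myelin. Whether these factors had a part in the lower levels was not tested. The table of promoters from RefSeq, on the GRCr8 assembly and not on the build of the counts, held 7 of the 9 members in 8 windows, 2 of them for Mbp. The windows of 250 bases before the annotated start were searched on both strands for ACAAAG and ACAATG, core letters read by Sox proteins, and for CTGGCAC and CTGGTAC, letters of the motif known for Myrf. The strands are given 5′ to 3′ toward the start, and capitals mark the matches in either orientation. The windows are chr1:95291045-95291294 for Mag and chr1:249858191-249858440 for Opalin (both minus strand), and chr8:128746982-128747231 for Mobp and chr10:86011254-86011503 for Cnp (both plus strand).
Mag: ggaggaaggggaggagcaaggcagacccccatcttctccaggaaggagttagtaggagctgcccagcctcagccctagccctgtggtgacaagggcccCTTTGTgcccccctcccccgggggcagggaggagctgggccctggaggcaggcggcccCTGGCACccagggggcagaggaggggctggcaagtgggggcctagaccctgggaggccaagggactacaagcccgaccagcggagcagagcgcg
Opalin: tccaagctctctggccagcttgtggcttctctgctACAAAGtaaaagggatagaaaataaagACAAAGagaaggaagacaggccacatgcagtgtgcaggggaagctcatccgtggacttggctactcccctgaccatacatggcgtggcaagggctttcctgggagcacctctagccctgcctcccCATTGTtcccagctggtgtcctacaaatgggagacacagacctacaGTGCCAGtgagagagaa
Mobp: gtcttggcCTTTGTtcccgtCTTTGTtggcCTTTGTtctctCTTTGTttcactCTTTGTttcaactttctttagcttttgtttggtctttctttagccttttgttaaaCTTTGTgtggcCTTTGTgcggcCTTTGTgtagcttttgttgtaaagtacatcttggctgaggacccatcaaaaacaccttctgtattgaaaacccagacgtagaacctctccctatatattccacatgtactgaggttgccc
Cnp: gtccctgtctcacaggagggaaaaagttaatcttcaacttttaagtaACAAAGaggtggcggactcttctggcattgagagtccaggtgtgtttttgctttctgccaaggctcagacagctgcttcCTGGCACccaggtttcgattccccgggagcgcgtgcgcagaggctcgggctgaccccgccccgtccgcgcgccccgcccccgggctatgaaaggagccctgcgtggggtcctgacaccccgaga

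ACAAAG lay in 5 of the 8 member windows and in 16.3% of all 33469 promoters of the same length, and Mobp held 8 copies of it. ACAATG lay in 2 windows, against 11.1% of all promoters. CTGGCAC lay in 3 windows (Mag, Opalin and Cnp) against 3.78%, and CTGGTAC in 1 window (Cldn11) against 1.78%. The window of Ugt8 and 1 of the 2 windows of Mbp held none of the letters. These matches describe the sequence and were not tested for binding.

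Most other genes of myelin and mature oligodendrocytes were also called lower. Of 30 such genes, all tested, 24 were lower in BCP, 1 was higher and 5 did not pass, with a median log2FC of -0.30, beside 12.1% lower and 15.8% higher among all tested genes, and none changed 2-fold. Gap junction genes that couple oligodendrocytes with astrocytes or with their own layers were among the lower ones. Gjb1 went from 42.6 ± 1.44 to 31.8 ± 1.3 CPM (SD, n = 3), a log2FC of -0.42 (edgeR adjusted p = 0.000321). Gjc3, a connexin gene at a low level of 22.1 ± 1.60 CPM in the sham libraries, had a log2FC of -0.48 (edgeR adjusted p = 0.0077). Nfasc, whose neurofascin joins the sheath to the axon beside the node but is made by neurons as well, went from 1466 ± 47.8 to 1087 ± 33.6 CPM (SD, n = 3), a log2FC of -0.43 (edgeR adjusted p = 1.07e-07). Gpr37, a receptor of mature oligodendrocytes, had a log2FC of -0.40 (edgeR adjusted p = 9.4e-07). The 1 gene called higher was Trim59, with a log2FC of 0.22 (edgeR adjusted p = 0.044), and it did not pass without sham replicate 2, BCP replicate 1, BCP replicate 2 or BCP replicate 3 (edgeR adjusted p = 0.22, 0.057, 0.070 and 0.14).

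The enzymes of sphingolipid and galactolipid metabolism, the pathway of Ugt8, split. Of 12 tested genes 5 were lower and 3 higher, with a median log2FC of -0.05, beside 12.1% lower and 15.8% higher among all tested genes. Those on the path toward the galactolipids of myelin included Fa2h, the hydroxylase that gives myelin its 2-hydroxylated lipids, which went from 243 ± 8.46 to 165 ± 3.46 CPM (SD, n = 3), a log2FC of -0.56 (edgeR adjusted p = 1.51e-08), close to that of Ugt8. Gal3st1, which turns galactosylceramide into sulfatide, had a log2FC of -0.43 (edgeR adjusted p = 0.0025), and Cers2, a ceramide synthase for very long chains, -0.25 (edgeR adjusted p = 0.0025). Arsa, the lysosomal sulfatase that degrades sulfatide, had a log2FC of -0.29 (edgeR adjusted p = 0.0019). The 3 genes called higher were Psap, Ugcg and Sptlc2. Psap, the precursor of the saposins that help lysosomal enzymes, had a log2FC of 0.62 (edgeR adjusted p = 0.000627). Ugcg, which makes glucosylceramide and so uses the same ceramide as Ugt8, had a log2FC of 0.29 (edgeR adjusted p = 0.000253). Sptlc2, a subunit of the first enzyme of sphingolipid synthesis, had a log2FC of 0.26 (edgeR adjusted p = 0.0083), and without sham replicate 3 its edgeR adjusted p = 0.053.

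Of 9 tested oligodendrocyte precursor genes 2 were higher and none lower, with a median log2FC of 0.09, a count of higher genes near the 15.8% of all tested genes. Ncan, a proteoglycan that astrocytes also make, had a log2FC of 0.42 (edgeR adjusted p = 1.31e-06). Ptprz1, which astrocytes also express, had a log2FC of 0.16 (edgeR adjusted p = 0.019), and did not pass without sham replicate 2 or BCP replicate 3 (edgeR adjusted p = 0.12 and 0.091); the count of higher genes was then 1 in either case and 3 without BCP replicate 2, and 1 gene was lower without sham replicate 1. Pdgfra and Cspg4, the receptor and the proteoglycan that define the precursors, did not pass the test, with a log2FC of 0.10 (SE 0.06) and 0.08 (SE 0.07). Of 8 tested genes of differentiating oligodendrocytes 5 were lower and none higher, with a median log2FC of -0.27, beside 12.1% lower among all tested genes. Enpp6, a phosphodiesterase of newly forming oligodendrocytes, went from 70.5 ± 3.44 to 45.4 ± 3.34 CPM (SD, n = 3), a log2FC of -0.64 (edgeR adjusted p = 8.81e-07), larger in size than that of any member. Bmp4, a secreted signal of that stage, had a log2FC of -0.50 (edgeR adjusted p = 0.0016) and Rras2, a small GTPase, -0.45 (edgeR adjusted p = 0.0074). The count of 5 became 3 without sham replicate 1, sham replicate 2 or BCP replicate 2. Bcas1 and Fyn, the most abundant of this list, did not pass, with a log2FC of -0.12 (SE 0.07) and -0.01 (SE 0.05). Tcf7l2 did not pass either, with a log2FC of 0.12 (SE 0.12). The list summed to 1131 to 1255 CPM in sham and 1032 to 1172 CPM in BCP libraries, so the groups overlapped.

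Of 12 transcription factors of the lineage 6 were lower and none higher, with a median log2FC of -0.17, and the count became 4 without BCP replicate 2. Among all tested genes 12.1% were called lower and 15.8% higher. Myrf, which turns on the genes of myelin, went from 436 ± 15.5 to 385 ± 4.23 CPM (SD, n = 3), a log2FC of -0.18 (SE 0.04, edgeR adjusted p = 0.0034). Sox10, which is needed for Myrf and for myelin genes, had a log2FC of -0.31 (edgeR adjusted p = 6.59e-05), Olig1 of -0.33 (edgeR adjusted p = 0.000175) and Zfp536 of -0.41 (edgeR adjusted p = 8.75e-05). Olig2, which specifies the lineage, did not pass, with a log2FC of -0.17 (SE 0.08, edgeR adjusted p = 0.16).

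**Figure D4:**
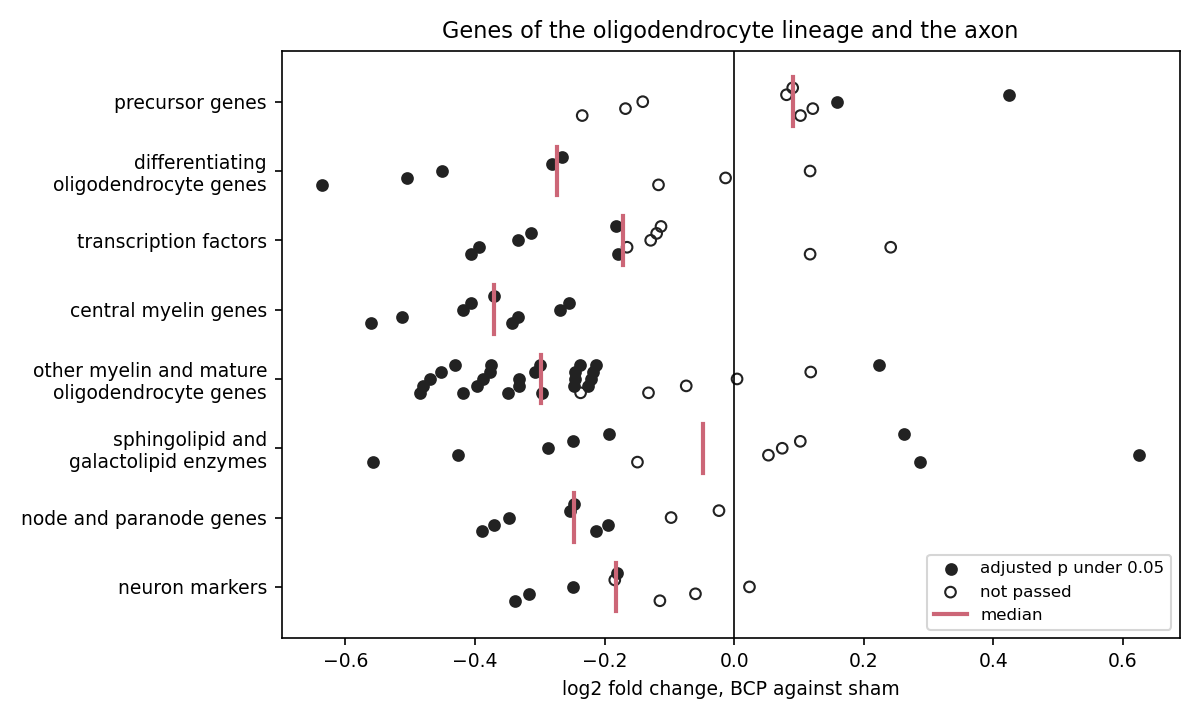
Log2 fold change between BCP and sham of each tested gene of 8 lists; filled points passed edgeR's test at an adjusted p under 0.05, open points did not, and the red line is the median of each list. The 9 central myelin genes are all filled and below 0, as are 24 of 30 other myelin genes, while precursor genes lie on both sides of 0.

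Genes of the axon and of neurons were called lower more often than higher. Of 9 tested genes of the node and paranode 7 were lower and none higher, with a median log2FC of -0.25. Among all tested genes 12.1% were called lower and 15.8% higher, and among those at least as abundant as Opalin 49.3% were called lower. All of the 9 but Sptbn4 were at least that abundant. Cntnap1 and Cntn1, which form the axonal side of the junction with the sheath, had a log2FC of -0.25 (edgeR adjusted p = 0.000267) and -0.39 (edgeR adjusted p = 1.07e-06), and Ank3 and Sptbn4, the scaffold under the node, of -0.37 (edgeR adjusted p = 3.2e-06) and -0.35 (edgeR adjusted p = 3.05e-05). Of 8 neuron markers 4 were lower and none higher, with a median log2FC of -0.18, beside the 12.1% of all tested genes and the 49.3% of those at least as abundant as Opalin that were called lower. Only Snap25, Tubb3 and Nefl among these markers were that abundant. Peripheral myelin and nerve root genes summed to 168 to 175 CPM in sham and 152 to 170.0 CPM in BCP libraries, and of 6 tested none was lower and 1, Egr2, was higher, which did not pass without sham replicate 2, sham replicate 3, BCP replicate 2 or BCP replicate 3, and 1 gene was lower without sham replicate 1 or BCP replicate 1.

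Markers of some other cells, though not of all, also differed between the groups. The counts of these lists stand beside 12.1% lower and 15.8% higher among all tested genes. The 8 microglia markers summed to 240.5 to 308 CPM in sham and 718 to 858 CPM in BCP libraries, with 6 higher and none lower. The 7 T cell markers, all higher, summed to 0.866 to 1.95 and 26.5 to 38.4 CPM, and the 4 red blood cell markers, all higher, to 241 to 255 and 467 to 688 CPM. Of 7 astrocyte markers 3 were lower and 1 higher, (2 higher without sham replicate 1), and their sums ran from 5723 to 6111 and from 7584 to 9320 CPM. Gfap, the filament protein of reactive astrocytes, carried most of that difference, at 2339 ± 158 and 4075 ± 356 CPM (SD, n = 3), together with Aqp4 in BCP 1, which stood at 2415 CPM against 354 to 379 CPM in the other libraries, and the median log2FC of the list was -0.0048. Of 4 endothelial markers, 4 of the meninges, 1 of skeletal muscle and 1 of epithelial tumour that were tested, none passed in either direction with edgeR, also at an unadjusted p under 0.05, and none passed with DESeq2. With a library left out, 1 endothelial marker was lower without sham replicate 3, and 1 muscle marker was higher without sham replicate 1, 2 or 3 or BCP replicate 1. BCP 1 held the highest sum of markers of the meninges, 104 CPM against 32.7 to 54.9 in the other libraries, and without it all 9 members were still lower. The part of these cells in the result was not tested. Where a list named here had no gene called in 1 direction, edgeR's unadjusted p under 0.05 was met by 1 transcription factor that was higher and 1 peripheral gene that was lower, by none in the other lists, and DESeq2 called none. Within single libraries the log2 ratio of the summed members to the summed neuron markers was 1.99 ± 0.120 in sham and 1.63 ± 0.0455 in BCP libraries (SD, n = 3), and without Mbp it was 0.023 ± 0.0668 and -0.21 ± 0.0371. The log2 ratio to the summed precursor genes was 4.35 ± 0.0691 and 3.65 ± 0.136. Most of the precursor sum came from Ptprz1 and Ncan, which astrocytes also express, with means of 553 and 288 CPM in sham and 617 and 387 CPM in BCP libraries. The ratio is therefore not one to precursors alone. Most of the neuron sum came from Nefl and Snap25. The groups did not overlap in any of these ratios, which were chosen after values had been seen and carry no test.

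The study also deposited counts of lncRNA transcripts, and took genes within 10 kb of a lncRNA as its possible targets in cis. Near 8 of the 9 members, all but Ugt8, lay 26 lncRNA transcripts, of which 21 overlapped the span of the member itself and 17 had enough counts to be tested. Of the 17, 2 were lower and none higher, in a background where 0.395% of 12157 tested lncRNAs were called lower and 1.57% higher, and the median log2FC was -0.23 against -0.01 over all lncRNAs. Both lay in the span of Mbp. NONRATT013625.2 (chr18:79434341-79435400) was counted 2655, 2808 and 2776 times in sham 1 to 3 and 1715, 1770 and 1796 times in BCP 1 to 3, with a log2FC of -0.49 (SE 0.05, edgeR adjusted p = 0.0042). NONRATT013623.2 (chr18:79409992-79410526) was counted 666, 788 and 772 times in sham 1 to 3 and 430, 515 and 546 times in BCP 1 to 3, with a log2FC of -0.43 (SE 0.08, edgeR adjusted p = 0.037). The groups did not overlap in either, nor in 5 others of the 17, and among all tested lncRNAs 9.65% had every BCP library below every sham library. Only 1 of the 2 passed without sham replicate 2, sham replicate 3, BCP replicate 2 or BCP replicate 3. The most abundant of the 26 was NONRATT028170.2 (chr8:128824495-128854547), which spans Mobp and had 51491 to 73812 counts per library. It had a log2FC of -0.18 (SE 0.07) and did not pass (edgeR adjusted p = 0.36). The Mobp gene itself had fewer counts, 15191 to 23094 per library, and a log2FC of -0.41 (SE 0.05). How reads were divided or shared between this transcript and Mobp is not given. The level and fall of Mobp therefore hold only for the counts assigned to the gene. The biological coefficient of variation was 33.4% for lncRNAs against 7.72% for genes, so a lncRNA that did not pass is not shown to be unchanged. NONRATT017009.2, within the span of Mog, had a log2FC of 0.04 (SE 0.09). Whether strand was used in the counting is not given in the sources used here, so reads of a lncRNA and of the member that it overlaps cannot be told apart.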

How the data were processed

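The authors prepared strand-specific libraries depleted of ribosomal RNA, mapped the reads to Rnor_6.0 with HISAT2 2.0.4 and used StringTie 1.3.0, per the submitters' processing notes. They deposited raw counts and FPKM of each gene and lncRNA transcript; the program that counted, and how it handled strand and shared reads, are not given in the sources used here. The deposited columns of the authors' own comparison (fold changes and p-values) were not used.

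Counts were tested with edgeR 4.0.16 (limma 3.58.1, R 4.3.3) over 14908 genes and, separately, 12157 lncRNAs, after edgeR's filter on low counts, with TMM normalization, a robust quasi-likelihood fit on condition alone and Benjamini-Hochberg adjustment over all features tested. A feature passed at an adjusted p under 0.05; the study also required a log2FC over 1 in either direction. Library totals were 11779485 counts or more, and the biological coefficient of variation was 7.72% for genes and 33.4% for lncRNAs. The code was tested on simulated counts. Of genes changed by a log2FC of 0.5 in either direction 63.6% were called, and of those changed by 1 79.4% were. Of lncRNAs 0% were called at 0.5, 5.88% at 1 and 60.6% at 2. A gene or lncRNA that did not pass is therefore not shown to be unchanged. DESeq2 1.42.0, other normalizations and filters, limma on the authors' FPKM, a replicate block and each library left out were alternatives. The members and gene lists were chosen with earlier results of these data known. The text names all members, genes of the lists, the 5 genes most like the members and nearby lncRNAs. Some genes of the lists are not reported here by name. Promoters come from RefSeq. Figures were drawn with matplotlib 3.10.9.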

Additional observations from a re-analysis of the deposited data

How the results depend on the processing

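The 9 members were called lower under upper-quartile normalization, relative log expression size factors, library size only, no low-count filter, a minimum of 10 counts in each library, DESeq2 and the replicate block, and 8 to 9 were called when 1 library was left out. Ermn missed in limma on log2(FPKM + 0.1) and log2(FPKM + 1) (adjusted p = 0.054 and 0.053), where 8 were called. With a log2FC beyond 1 also required, 0 members, 0 of the other myelin genes called lower and 0 called higher were left. The 1 other myelin gene called higher became 0 under upper-quartile normalization and DESeq2, and 0 to 1 with a library left out. The 2 lncRNAs called lower became 1 under library size only, no filter and the replicate block, and 1 to 2 with a library left out; the alternatives for lncRNAs and the 2-fold threshold were chosen after seeing the data. Of 704 values of 47 of the named genes over the settings other than the 2-fold threshold, all kept their direction and 22 lost their call. Other lists' counts also moved by over 1.5 times with all libraries kept: transcription factors lower, 6 to 3 in limma, differentiating genes lower, 5 to 3 under library size only and DESeq2, precursor genes higher, 2 to 1 under upper-quartile normalization, astrocyte markers lower, 3 to 1 in limma, peripheral genes higher, 1 to 0 in limma, DESeq2 and with at least 10 counts, peripheral genes lower, 0 to 1 under upper-quartile normalization, and muscle markers higher, 0 to 1 with no filter. T cell markers higher went from 7 to 0 with at least 10 counts in each library, which the low sham counts do not meet. Over all genes the split of lower and higher calls was 1805 and 2352, and became 1257 and 2673 under library size only and 966 and 2443 or 975 and 2470 in limma with either pseudocount; the cause was not tested. Same-numbered libraries of the groups did not deviate together (correlations of -0.11, 0.044 and -0.035), so the numbers were not taken as pairs; with the replicate block 1597 genes were lower and 2217 higher.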

Other observations

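Further genes carry terms on myelin in the annotation of the deposited table, and their counts stand beside 12.1% lower and 15.8% higher among all tested genes. Of 99 tested genes annotated with myelination 35 were lower in BCP and 10 higher, with a median log2FC of -0.12, and 3 of the 99 were members. Of 15 annotated with compact myelin, 2 of them members, 6 were lower and none higher, and of 81 annotated with oligodendrocyte differentiation 25 were lower and 9 higher. Of 14 annotated with central nervous system myelination, none of them a member, 7 were lower and 1 higher. Calls were those of edgeR's quasi-likelihood test at an adjusted p under 0.05.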
